A study of Mus musculus with 16 samples.

Results

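The genes described here are 10 immediate early genes of 4 kinds: Egr1, Egr2 and Egr3, Nr4a1, Nr4a2 and Nr4a3, Ier2, Ier3 and Ier5, and Btg2. Their probe sets were taken by the gene symbol of the array's platform annotation, which gave 22 probe sets of 45037 and 10 genes of the 18193 genes with a symbol of their own. Egr1, Nr4a1, Ier2 and Ier3 had 1 probe set each, Egr2, Egr3 and Btg2 had 2, Nr4a3 and Ier5 had 3, and Nr4a2 had 6. All 22 were kept and tested, since no filter on low values was applied. A gene is described by its brightest probe set, the one with the highest mean over all samples, unless another is named.

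Expression was measured in left lungs of 15-week-old male Balb/c mice from total RNA on Affymetrix mouse genome arrays. The smoke was sidestream smoke (second-hand smoke, SHS) at 10 mg/m3 of particles, in daily sessions of 5 hours, 7 days a week, and the control was filtered air. SS mice met SHS both in utero and as adults, AS mice only as adults and SA mice only in utero, while AA mice had air at both times. Each group had 4 arrays, labelled as biological replicates, and all groups shared the strain, sex, age and tissue. The labels used here give neither the time between the last exposure and collection of the lung nor litters.

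Immediate early genes are switched on within minutes of a signal, without new protein synthesis, and their short-lived mRNAs soon disappear again. Growth factors, stretch, calcium and stress reach them through MAP kinases and through factors already present in the nucleus, chiefly SRF with its ETS partners on CArG boxes and CREB on cAMP response elements. The EGR proteins are zinc finger transcription factors and the NR4A proteins are orphan nuclear receptors, and both in turn regulate later genes. In lung, these genes respond to injury, inflammation and mechanical strain in epithelium, vessels and leukocytes.

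Array medians lay between 6.9 and 6.93 on the log2 scale. Of 24 pairs of arrays within a group, 2 were nearly identical. Over the bright probe sets that varied most, the root mean square of the differences was 0.072 for SS replicates 1 and 2 and 0.098 for AS replicates 3 and 4, against 0.313 to 0.739 in the other 22 pairs. Over the early genes the largest difference was 0.12 within the SS pair and 0.2 within the AS pair. Both pairs were averaged, so that the comparisons rest on 3 SS, 3 AS, 4 SA and 4 AA samples. In AA lungs, the markers of the tissue were bright, with mean log2 values of 14.48 for club cells, 13.90 for AT2 cells, 12.73 for AT1 cells and 12.03 for endothelium. The log2 gap between 3′ and 5′ probe sets of actin, a measure of RNA integrity, was 0.29 to 0.32 in SS, 0.17 to 0.33 in AS, 0.35 to 0.42 in SA and 0.31 to 0.41 in AA samples, and the smallest gaps were those of AS replicates 3 and 4, at 0.17 and 0.21. These arrays also had the highest signal at the 3′ probe set of Gapdh, at 12.63 and 12.59, against 12.18 to 12.41 in the other 14 arrays. They make up the averaged AS sample, which was lower than AS replicates 1 and 2 in Egr1, Egr2, Egr3, Nr4a1, Nr4a2, Nr4a3, Ier2 and Btg2. The part of RNA quality in the results was not tested.

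Promoter windows show the DNA on which these signals are read, and they are given for the members whose windows held the motifs of early response genes. A window ran from 250 bases before to 50 after the start of a gene, from RefSeq on GRCm38.p6, and 7 of the 10 genes had one. Egr1, Egr3 and Ier2 had no window in the table used and were not searched. Both strands were searched for the CArG box (CC, then 6 bases that are each A or T, then GG), the core of the cAMP response element TGACG, the ETS core CCGGAA, the EGR core GTGGGCG or GGGGGCG, and a TATA box, TATAAA or TATATA. Capitals mark the matches, and overlapping matches run together. A match describes the letters of the window and is not evidence of binding.
Egr2, chr10:67537619-67537918, plus strand: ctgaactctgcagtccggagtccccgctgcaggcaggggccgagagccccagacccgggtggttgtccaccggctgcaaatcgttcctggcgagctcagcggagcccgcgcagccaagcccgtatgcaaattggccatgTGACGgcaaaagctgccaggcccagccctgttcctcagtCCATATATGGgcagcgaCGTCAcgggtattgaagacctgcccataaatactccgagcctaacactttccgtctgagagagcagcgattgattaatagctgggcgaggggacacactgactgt
Nr4a1, chr15:101266596-101266895, plus strand: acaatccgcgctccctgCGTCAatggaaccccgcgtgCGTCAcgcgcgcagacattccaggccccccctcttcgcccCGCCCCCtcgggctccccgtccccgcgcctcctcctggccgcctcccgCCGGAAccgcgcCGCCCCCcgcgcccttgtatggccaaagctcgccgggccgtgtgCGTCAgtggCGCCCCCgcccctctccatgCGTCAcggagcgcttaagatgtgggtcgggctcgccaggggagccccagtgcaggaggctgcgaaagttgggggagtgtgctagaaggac
Nr4a2, chr2:57123954-57124253, minus strand: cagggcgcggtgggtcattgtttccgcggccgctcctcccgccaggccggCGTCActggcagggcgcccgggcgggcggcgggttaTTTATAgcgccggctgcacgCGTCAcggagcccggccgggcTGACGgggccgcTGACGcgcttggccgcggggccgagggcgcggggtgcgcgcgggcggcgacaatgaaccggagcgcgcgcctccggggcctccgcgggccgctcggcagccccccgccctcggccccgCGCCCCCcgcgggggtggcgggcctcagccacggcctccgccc
Nr4a3, chr4:48045055-48045354, plus strand: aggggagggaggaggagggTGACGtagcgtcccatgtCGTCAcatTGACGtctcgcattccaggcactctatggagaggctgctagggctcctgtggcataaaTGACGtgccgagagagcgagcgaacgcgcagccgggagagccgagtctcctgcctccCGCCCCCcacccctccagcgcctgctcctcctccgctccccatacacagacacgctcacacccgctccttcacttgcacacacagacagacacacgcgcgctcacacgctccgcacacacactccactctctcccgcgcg
Btg2, chr1:134079106-134079405, minus strand: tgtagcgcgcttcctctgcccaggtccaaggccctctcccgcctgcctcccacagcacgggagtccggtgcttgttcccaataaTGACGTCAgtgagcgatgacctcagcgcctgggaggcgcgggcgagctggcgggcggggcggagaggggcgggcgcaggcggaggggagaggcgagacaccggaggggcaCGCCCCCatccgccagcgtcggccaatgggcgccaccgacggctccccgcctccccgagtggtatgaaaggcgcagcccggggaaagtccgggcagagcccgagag

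The CArG box was in 1.63% of all 32851 mouse windows, and among the 7 early genes searched only Egr2 held it. RefSeq gave 5 windows for Egr2, of which 4 had a CArG box, and 3 of those overlapped each other and shared theirs. In the Egr2 window printed above, the box lay at -72 to -63 from the start, with TGACG at -111 to -107 and at -55 to -51. TGACG was in 20.8% of all windows. Nr4a1 held 4 copies, of which the nearest to the start began at -40, together with 3 EGR cores and 1 ETS core. Nr4a2 held 4 copies that began between -200 and -111, and Nr4a3 held 4 that began between -231 and -147. In Btg2 a pair of TGACG matches on opposite strands overlapped at -166 to -159, and 1 EGR core followed at -56. The Ier5 window had an EGR core and a TATA box at -28 to -23, and the Ier3 window had none of the 5 motifs. The EGR core was in 21.8%, the ETS core in 14.9% and the TATA box in 17.1% of all windows.

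The first comparison asked what adult SHS did to the early genes in mice exposed to air before birth (AS minus AA). Of the 10 genes, 1 passed the threshold, Ier2, which rose, while 1.55% of all probe sets passed in either direction. The other differences did not pass, although 9 of 10 genes had an unadjusted p under 0.05, against 20.3% of all probe sets. The median difference was 1.12 over the early genes and 0.017 over all probe sets on the log2 scale. Differences are from limma fitted across all probe sets and all 4 groups, two-sided, with Benjamini-Hochberg adjustment and a threshold of 0.05, and ± is the SE of the fit unless it is named SD. In whole lung, a shift in the number of cells that carry a transcript and a shift in transcript per cell cannot be told apart.

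Ier2, a small nuclear protein that regulates transcription, had log2 values of 12.16 in AS replicate 1, 12.40 in AS replicate 2 and 11.34 in the averaged AS sample, against 10.84, 11.01, 10.63 and 10.54 in AA replicates 1 to 4. Every AS sample was above every AA sample, although the share of all probe sets that did the same was not counted. The difference was 1.22 ± 0.20, a 2.32-fold rise, with an adjusted p of 0.00936 from limma. Over the 23 alternatives it stayed between 1.0 and 1.53 and passed in 22, with adjusted p from 0.000367 to 0.0968, the highest with only AS and AA in the fit.

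Btg2, an antiproliferative protein that recruits the mRNA deadenylation machinery and is a p53 target, was at 13.47, 13.63 and 12.23 in AS, against 12.23, 12.29, 12.06 and 11.79 in AA. AS replicates 1 and 2 stood above every AA sample, and the mean of AS replicates 3 and 4 lay within the AA range. Its difference was 1.01 ± 0.26, with an adjusted p of 0.0616 from limma. The second Btg2 probe set, 1448272_at, did pass, at 1.17 ± 0.22 with a limma adjusted p of 0.0221, and also in SS minus AS, at -1.54 (limma adjusted p 0.00595).

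The EGR genes followed the same division of the AS samples. Egr1, the EGR factor best known in growth factor and injury responses, read 14, 14.15 and 12.28 in AS, against 12.49, 12.84, 12.99 and 12.05 in AA. Egr2, which drives myelination and restrains T cell activation, read 10.0, 10.89 and 8.45 in AS, against 8.47, 8.88, 9.33 and 8.42 in AA. Egr3, a relative that acts with it in lymphocytes and itself acts in muscle spindles, read 10.36, 11.78 and 8.48 in AS, against 7.56, 8.30, 9.79 and 7.82 in AA. In all 3 genes AS replicates 1 and 2 were above every AA sample and the averaged AS sample was not. The differences were 0.88 ± 0.40 for Egr1, 1.01 ± 0.39 for Egr2 and 1.83 ± 0.62 for Egr3, with adjusted p of 0.233, 0.177 and 0.129 from limma.

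Among the NR4A receptors, Nr4a1, also called Nur77, read 13.08, 13.75 and 12.06 in AS, against 10.43, 11.39, 12.44 and 10.71 in AA. Nr4a2, also called Nurr1 and required for midbrain dopamine neurons, read 10.22, 11.31 and 8.82 in AS, against 8.05, 8.74, 10.03 and 8.68 in AA. Nr4a3, also called NOR1, read 10.68, 11.72 and 9.67 in AS, against 8.23, 8.78, 11.28 and 9.24 in AA. AA replicate 3 was the highest AA sample for all 3 receptors, and in each of them it lay above the averaged AS sample. The differences were 1.72 ± 0.48 for Nr4a1, 1.24 ± 0.48 for Nr4a2 and 1.30 ± 0.57 for Nr4a3, with adjusted p of 0.0791, 0.172 and 0.216 from limma.

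Ier3 and Ier5 had the smallest differences. Ier3, a stress-induced regulator of cell survival and a target of NF-kB, read 12.14, 12.51 and 12.78 in AS, against 11.82, 12.17, 12.22 and 12.02 in AA. It was the only one of the 10 that was highest in the averaged AS sample, and its difference was 0.42 ± 0.15 (limma adjusted p 0.143). Ier5, which promotes the activity of heat shock factor 1, read 9.80, 10.22 and 10.0 in AS, against 10.24, 10.23, 10.31 and 10.11 in AA, a difference of -0.22 with an adjusted p of 0.253 from limma.

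Single samples decided how many genes passed in AS minus AA. Without the averaged AS sample 4 genes passed in limma: Ier2 at 1.53 (adjusted p 0.000367), Egr2 at 1.67 (0.0106), Egr3 at 2.70 (0.0379) and Btg2 at 1.45 (0.0023). Without AA replicate 3 the count was 3, made of Ier2, Nr4a1 at 2.12 (adjusted p 0.0379) and Nr4a3 at 1.94 (adjusted p 0.0391). Without AS replicate 2, the Egr2 difference was 0.45 and the Egr3 difference was 1.05.

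**Figure D1:**
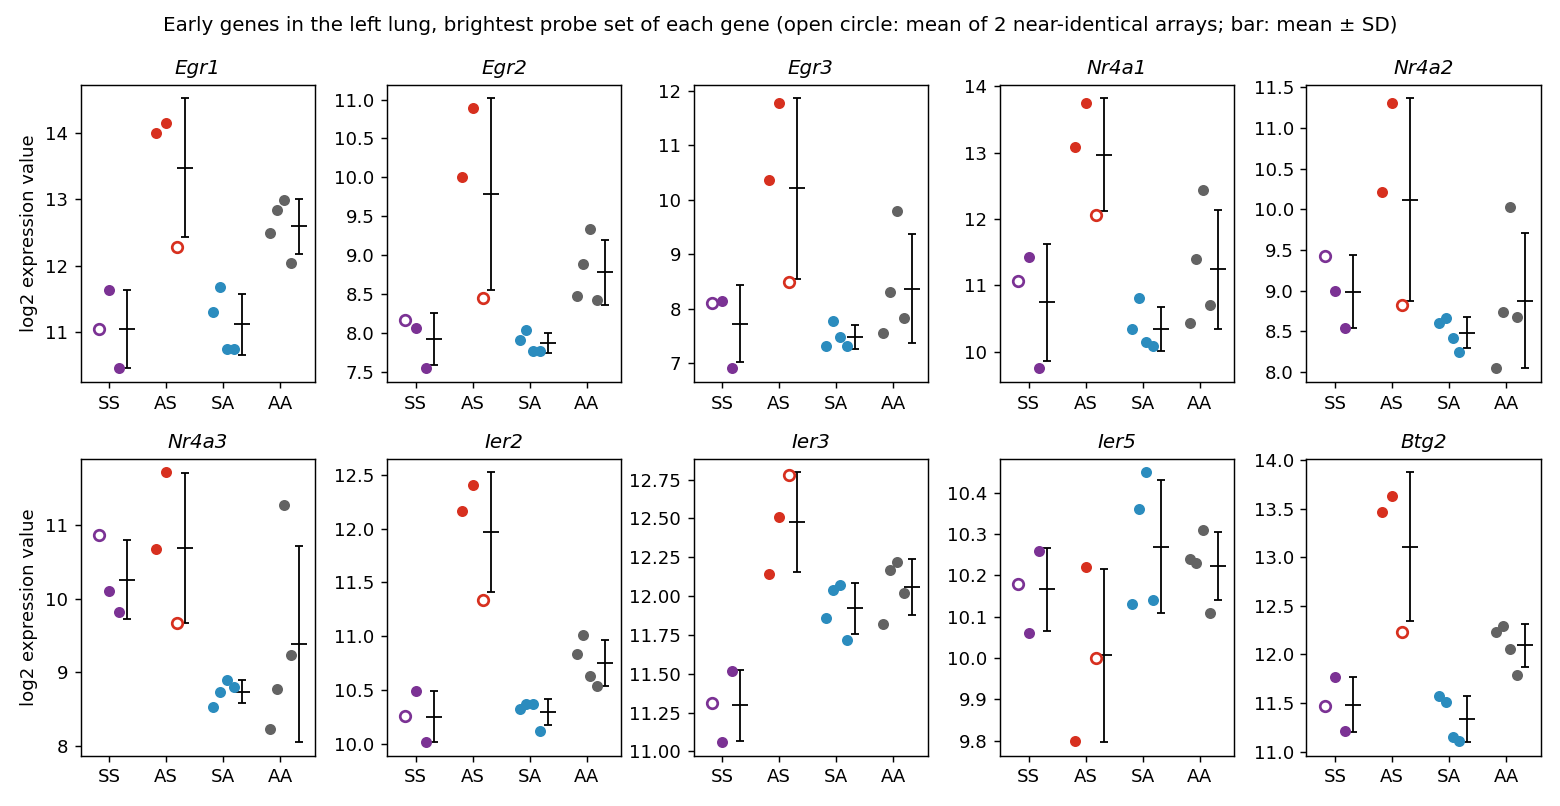
Log2 array values of the brightest probe set of each of the 10 early genes, 1 panel per gene, with the groups SS, AS, SA and AA along the axis, points for samples (each near-identical pair averaged) and bars for the group mean and SD. AS replicates 1 and 2 are the highest samples for Egr1, Egr2 and Btg2, while Nr4a3 is higher in every SS sample than in every SA sample.

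The same question was asked in mice exposed to SHS before birth (SS minus SA). Of the 10 genes, 1 passed, Ier3, which fell, and 1.64% of all probe sets passed in either direction. An unadjusted p under 0.05 was reached by 2 of 10 genes, against 14.5% of all probe sets, and the median difference was 0.1 over the early genes and 0.009 over all probe sets. Ier3 read 11.31 in the mean of SS replicates 1 and 2, 11.06 in SS replicate 3 and 11.52 in SS replicate 4, against 11.86, 12.04, 12.07 and 11.72 in SA replicates 1 to 4. All SS samples were below all SA samples, although the share of all probe sets with such a separation in this direction was not counted. The difference was -0.62 ± 0.15, 1.54-fold lower, with an adjusted p of 0.0497 from limma. The call held in 11 of 23 alternatives, with adjusted p from 0.00948 to 0.266 from limma. The losses included the fits without SS replicate 3 (-0.50) and without the averaged SS sample (-0.63). They also included fits without a sample of another group, such as AS replicate 2 (limma adjusted p 0.06) or AA replicate 3 (limma adjusted p 0.0547).

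Nr4a3 read 10.86, 10.10 and 9.82 in SS, against 8.53, 8.73, 8.89 and 8.80 in SA. By brightest probe sets, it was the 1 early gene of 10 with every SS sample above every SA sample, as were 7.97% of all probe sets. Its dimmer probe sets overlapped, 1421080_at with 6.75 to 6.86 in SS and 6.59 to 6.76 in SA. The dimmest, 1421079_at, read 4.15 to 4.3 in SS and 3.92 to 4.39 in SA. The other Egr3 probe set, 1421486_at, did separate, with 6.79 to 6.9 in SS and 6.55 to 6.68 in SA. The Nr4a3 difference was 1.52 ± 0.57 at the brightest probe set, with an adjusted p of 0.226 from limma. It passed with only the SS and SA samples in the fit (limma adjusted p 0.0115). The SA samples of Nr4a3 had an SD of 0.15, and the AA samples one of 1.33.

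The remaining early genes had SS values that overlapped the SA values at their brightest probe sets. Egr1 read 11.05, 11.64 and 10.46 in SS, against 11.31, 11.68, 10.75 and 10.75 in SA, a difference of -0.08 ± 0.40. Nr4a1 read 11.07, 11.42 and 9.75 in SS, against 10.34, 10.81, 10.15 and 10.08 in SA, a difference of 0.40 with an adjusted p of 0.762 from limma. Ier2, the gene called in AS minus AA, read 10.26, 10.49 and 10.02 in SS, against 10.33, 10.37, 10.37 and 10.12 in SA, a difference of -0.04. Egr2, Egr3 and Nr4a2 were also not called, at 0.06, 0.24 and 0.51, nor were Btg2 at 0.15 and Ier5 at -0.11. SS replicate 4 was the lowest SS sample for Egr1, Egr2, Egr3, Nr4a1, Nr4a2, Nr4a3, Ier2 and Btg2.

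In-utero SHS alone (SA minus AA) gave no call in any early gene and none among all probe sets (0 of 10 genes and 0.0% of 45037 in limma). An unadjusted p under 0.05 was reached by 4 of 10 early genes and by 6.23% of all probe sets. The median difference was -0.7 over the early genes, and the lowest adjusted p among them was 0.652, for Egr1. Egr1 had the largest difference, -1.47 ± 0.37, from the SA values given above, which averaged 11.12 ± 0.46, against 12.59 ± 0.42 in AA (SD, n = 4 each). All SA samples were below all AA samples for Egr1, Egr2, Ier2 and Btg2, or 4 of 10 genes, as were 1.69% of all probe sets. Egr2 read 7.90, 8.03, 7.77 and 7.76 in SA and differed by -0.91 ± 0.36. Btg2 read 11.57, 11.51, 11.15 and 11.11 in SA and differed by -0.76 ± 0.24. Ier2 differed by -0.46 ± 0.18.

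The spread between samples differed between SA and AA in some genes. The SD of Egr3 was 0.22 in SA and 1.0 in AA, that of Nr4a1 was 0.33 in SA and 0.90 in AA, and that of Nr4a2 was 0.19 in SA and 0.83 in AA. It was not smaller in SA for Egr1 (0.46 in SA and 0.42 in AA), Btg2 (0.24 in SA and 0.23 in AA) or Ier5 (0.16 in SA and 0.09 in AA). AA replicate 3, at 9.79 for Egr3, 12.44 for Nr4a1 and 11.28 for Nr4a3, was the highest AA sample for each of them. Without AA replicate 3 the difference of Egr3 was -0.42, against -0.90 with it, that of Nr4a1 was -0.50, against -0.90, and that of Nr4a3 was -0.01, against -0.65.

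The groups that both breathed SHS as adults were compared next (SS minus AS). Of the 10 genes, 4 passed, Egr1, Ier2, Ier3 and Btg2, all lower in SS, while 0.968% of all probe sets passed in either direction. An unadjusted p under 0.05 was reached by 8 of 10 early genes and by 13.6% of all probe sets, and the median difference was -1.67 over the early genes and -0.01 over all probe sets. Every SS sample was below every AS sample for 7 of 10 genes, namely Egr1, Egr2, Egr3, Nr4a1, Ier2, Ier3 and Btg2, as for 9.04% of all probe sets. This comparison shares its AS samples with AS minus AA and its SS samples with SS minus SA.

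Egr1 averaged 11.05 ± 0.59 in SS and 13.48 ± 1.04 in AS (SD, n = 3 each), 5.39-fold lower, with a log2 difference of -2.43 ± 0.43 and an adjusted p of 0.0138 from limma. Ier2 averaged 10.26 ± 0.24 in SS and 11.97 ± 0.55 in AS, 3.28-fold lower, at -1.71 ± 0.21 (limma adjusted p 0.00141). Btg2 averaged 11.48 ± 0.28 in SS and 13.11 ± 0.77 in AS, 3.08-fold lower, at -1.62 ± 0.28 (limma adjusted p 0.0125). The individual SS values of Btg2 were 11.47, 11.77 and 11.21, all below the lowest AS value of 12.23. Ier3 averaged 11.30 ± 0.23 in SS and 12.48 ± 0.32 in AS, 2.26-fold lower, at -1.18 ± 0.16 (limma adjusted p 0.00244).

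Egr2 read 8.16, 8.06 and 7.54 in SS, all under the lowest AS value of 8.45, and its difference of -1.86 ± 0.42 had an adjusted p of 0.0517 from limma. Egr3 read 8.11, 8.14 and 6.9 in SS and differed by -2.49 ± 0.66 (limma adjusted p 0.101). Nr4a1 differed by -2.21 ± 0.51 (limma adjusted p 0.0574). The groups did not overlap for these 3 genes, yet none passed. The other 2 receptors overlapped between SS and AS at their brightest probe sets. Nr4a2 read 9.43, 9.0 and 8.54 in SS and differed by -1.13, and Nr4a3 differed by -0.43 (limma adjusted p 0.79). Among the dimmer Nr4a2 probe sets, 1447863_s_at at -1.25, 1433422_at at -0.21 and 1433423_at at -0.13 did not overlap. The others, 1450750_a_at at -1.34 and 1450749_a_at at -0.51, did overlap, and none of the dimmer Nr4a2 probe sets passed. Ier5 read 10.18, 10.06 and 10.26 in SS and differed by 0.16.

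Ier2 and Ier3 passed in all 23 alternatives of SS minus AS, and Egr1 and Btg2 in 20 of 23, with adjusted p up to 0.101 for Egr1 and 0.108 for Btg2 from limma. The count was 2 without the averaged SS sample (Egr1 at -2.43, adjusted p 0.0623, and Btg2 at -1.62, adjusted p 0.0559, in limma) and 2 without SS replicate 4, when the same pair, Egr1 and Btg2, missed the threshold. It was 7 without the averaged AS sample, when Egr2 at -2.52, Egr3 at -3.35 and Nr4a1 at -2.66 also passed. Markers of B cells were also read in this comparison. Of 3 measured, 1 passed, Cd79a, which was lower at -1.31 ± 0.22 (limma adjusted p 0.0125). Cd79a is outside the naming rule and was chosen after its value was seen. Cd79b at -0.99 and Ms4a1 at -1.22 did not pass. In SS minus SA the differences were -0.64 for Cd79a, -0.75 for Cd79b and -1.08 for Ms4a1, none past the threshold. The median of the early genes there was 0.1. The mean of the 3, relative to AA, was -1.23 to -0.63 in SS, -0.16 to 0.72 in AS, -0.32 to 0.31 in SA and -0.59 to 0.43 in AA samples. Of 5 T cell markers none passed in SS minus AS in limma, with 4 at an unadjusted p under 0.05, against 13.6% of all probe sets. The mean of the 5 was -0.31 to -0.14 in SS and -0.10 to 0.15 in AS samples. The part of lymphocytes in the early gene values was not tested.

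**Figure D2:**
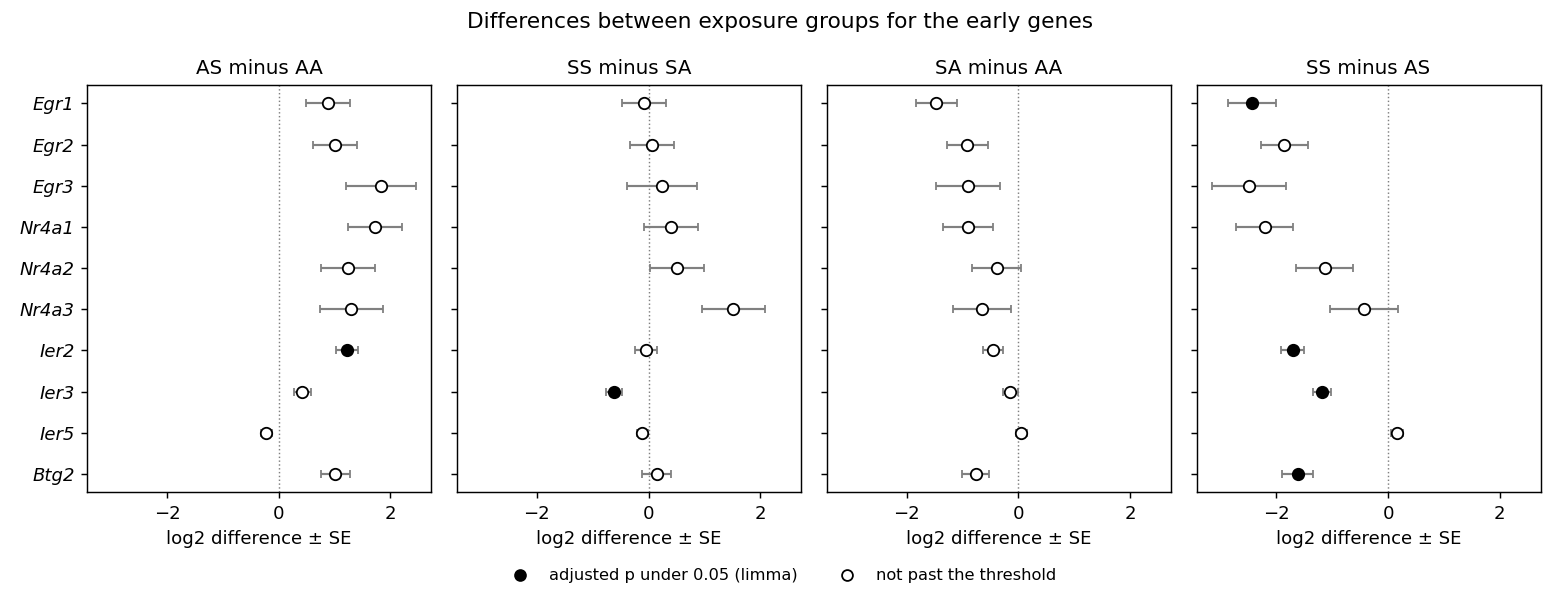
Log2 differences of the 10 early genes in AS minus AA, SS minus SA, SA minus AA and SS minus AS, from limma, with bars of 1 SE and filled points for an adjusted p under 0.05. Ier2 is filled in AS minus AA, Ier3 in SS minus SA, and Egr1, Ier2, Ier3 and Btg2 in SS minus AS.

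Against mice never exposed (SS minus AA), 1 of 10 genes passed, Ier3, and 0.4% of all probe sets passed in either direction. Ier3 was 1.69-fold lower, at -0.76 ± 0.15, with an adjusted p of 0.0407 from limma, and this call held in 10 of 23 alternatives, with adjusted p from 0.00703 to 0.264. All SS samples were below all AA samples for 5 of 10 genes, Egr1, Egr2, Ier2, Ier3 and Btg2, as for 6.97% of all probe sets. The second Btg2 probe set, 1448272_at, overlapped, with 10.75 to 11.25 in SS and 11.14 to 11.54 in AA. At the other Egr3 probe set, 1421486_at, all SS samples were above all AA samples, a difference of 0.15 (limma adjusted p 0.446). The difference of Egr1 was -1.54, with an adjusted p of 0.138 from limma. Nr4a3 stood on the other side at 0.88, with an adjusted p of 0.651 from limma.

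Averaged over both in-utero exposures, the mean adult SHS effect passed in 1 of 10 genes, Ier2, at 0.59 ± 0.14 with an adjusted p of 0.0255 from limma, and in 5.95% of all probe sets in either direction. Nr4a3 had the largest mean effect, 1.41 ± 0.40, with an adjusted p of 0.0511 from limma. It was made of 1.52 in SS minus SA and 1.30 in AS minus AA. Nr4a1 followed at 1.06 (limma adjusted p 0.0739). Without AA replicate 3 Nr4a3 passed at 1.73, with an adjusted p of 0.0046 from limma. The Ier2 call was lost without AS replicate 1, without the averaged SS sample or without SS replicate 3, and the count was then 0. It was 6 without the averaged AS sample.

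The interaction tests whether the adult difference itself depended on the exposure before birth, as SS minus SA less AS minus AA. No early gene passed (0 of 10 in limma, with 3 of 10 at an unadjusted p under 0.05), and 0.131% of all probe sets passed in either direction, with 9.11% of them at an unadjusted p under 0.05. The lowest adjusted p were 0.0702 for Ier3, at -1.04 ± 0.21, and 0.101 for Ier2, at -1.26 ± 0.28, both from limma. Egr3 had -1.59 and Nr4a1 -1.32, with adjusted p of 0.632 and 0.6 from limma, and Nr4a3 had 0.22. Without the averaged AS sample 2 genes passed in limma, Ier2 at -1.57 (adjusted p 0.00535) and Btg2 at -1.31 (adjusted p 0.0401). Without AS replicate 1 the 1 gene that passed was Ier3, at -1.21. That Ier2 passed in AS minus AA and not in SS minus SA is therefore not itself a difference past the threshold.

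**Figure D3:**
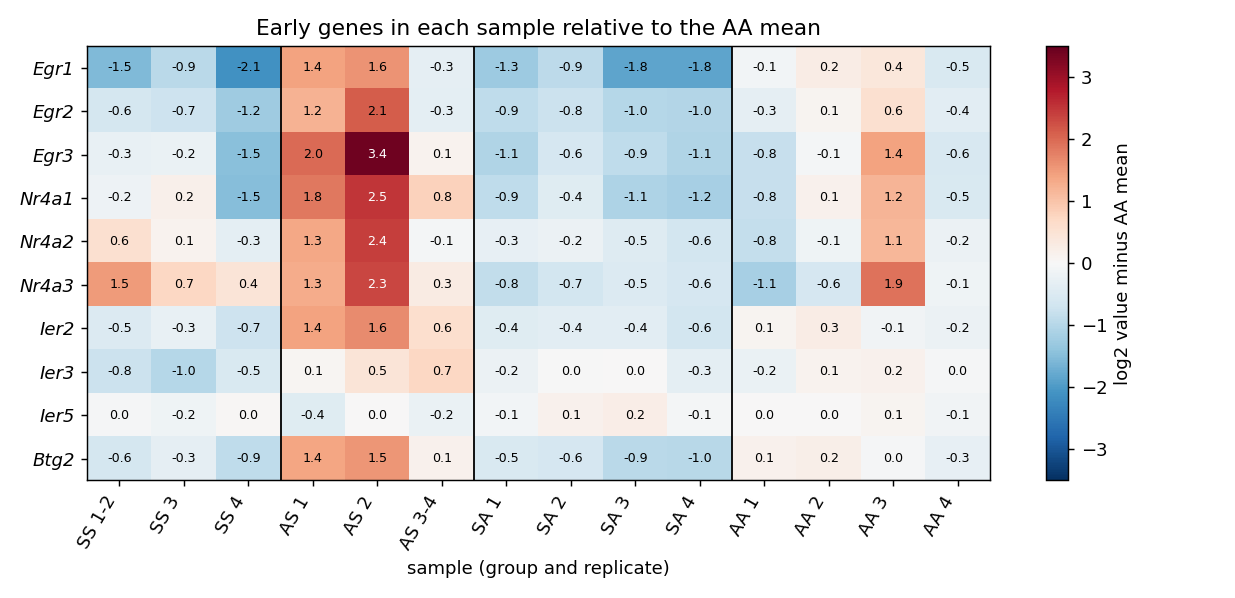
Heat map of the log2 value of each early gene in each of the 14 samples relative to its AA mean, with samples in the order SS, AS, SA, AA. The mean over the 10 genes is 1.15 in AS replicate 1 and 1.80 in AS replicate 2 but 0.18 in the averaged AS sample, and it is below 0 in every SS and SA sample.

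The mean of the 10 genes relative to AA summarises the spread between mice. It was -0.25, -0.26 and -0.83 in SS, 1.15, 1.80 and 0.18 in AS, -0.65, -0.44, -0.69 and -0.83 in SA, and -0.40, 0.03, 0.67 and -0.30 in AA. AS replicates 1 and 2 were the highest of all samples, and AA replicate 3 came next. By the mean, the order of the groups was AS, AA, SS and SA for Egr2, Egr3, Nr4a1 and Btg2, and AS, AA, SA and SS for Egr1 and Ier2. In these 6 genes SS and SA overlapped, and AS overlapped AA in all of them but Ier2. Nr4a2 had the order AS, SS, AA and SA, with overlap between all neighbours. Nr4a3 had the order AS, SS, AA and SA, with 10.69 ± 1.02, 10.26 ± 0.53, 9.38 ± 1.33 and 8.74 ± 0.15 (SD), and all neighbours overlapped. Ier3 had the order AS, AA, SA and SS, with 12.48 ± 0.32, 12.06 ± 0.18, 11.92 ± 0.16 and 11.30 ± 0.23 (SD), and only SA and SS, among neighbours, did not overlap. Ier5 stayed between 10.01 ± 0.21 in AS and 10.27 ± 0.16 in SA (SD).

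Within groups, after the group mean was taken off, some of the genes varied together. The correlations are descriptions over 14 samples that share arrays and normalization. Egr3 followed Egr2 (r = 0.96), Nr4a1 (r = 0.93) and Nr4a2 (r = 0.97), and Nr4a2 followed Nr4a3 (r = 0.92). Btg2 followed Ier2 (r = 0.95) and Egr1 (r = 0.93), whereas Nr4a3 followed Btg2 (r = 0.30) and Ier2 (r = 0.25) weakly. Outside AS, the r of Nr4a3 was -0.19 with Btg2 and -0.30 with Ier2. In the 11 samples outside AS, Egr3 still followed Nr4a1 (r = 0.97) and Nr4a2 (r = 0.94), and Btg2 followed Ier2 (r = 0.84) and Egr1 (r = 0.86), but the r of Egr3 with Btg2 was 0.27, against 0.70 with AS included. Egr1 also followed Egr2 (r = 0.87), Egr3 (r = 0.82) and Nr4a1 (r = 0.83), and less closely Nr4a2 (r = 0.74) and Nr4a3 (r = 0.48). Outside AS, Egr1 followed Nr4a1 (r = 0.82) more closely than Ier2 (r = 0.67), and its r was 0.52 with Nr4a2 and 0.25 with Nr4a3. Egr2 followed Btg2 (r = 0.84) and Ier2 (r = 0.81), although outside AS these were 0.46 and 0.33. Ier3 ran against Btg2 (r = -0.54, and -0.31 outside AS) and with Ier5 (r = 0.65, and 0.73 outside AS).

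**Figure D4:**
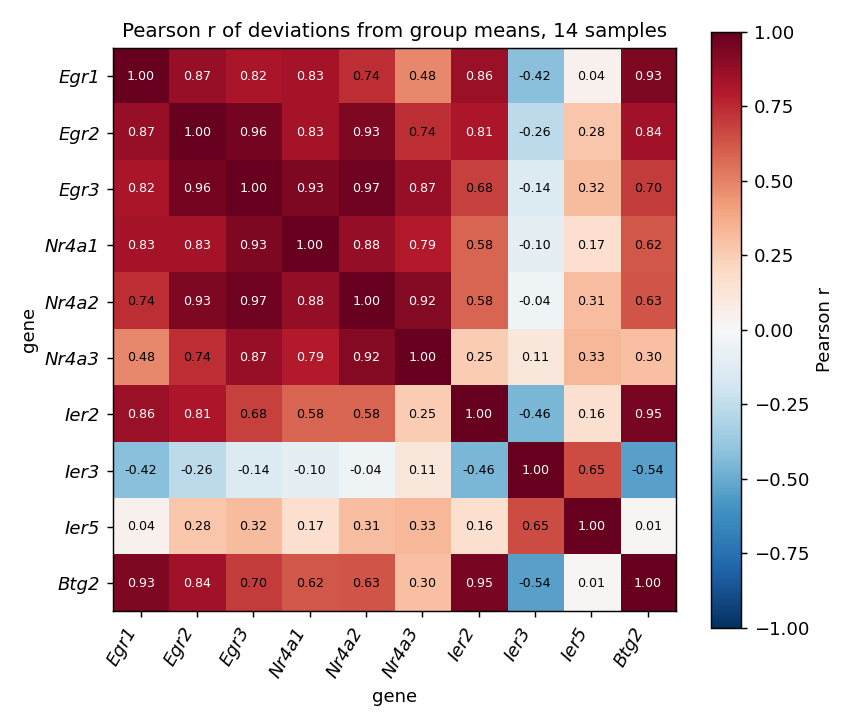
Pearson correlations between the 10 early genes over 14 samples after the mean of each sample's group was taken off. The r is 0.74 to 0.97 among Egr2, Egr3, Nr4a1, Nr4a2 and Nr4a3 and 0.86 to 0.95 among Egr1, Ier2 and Btg2, the 2 sets are not separate (0.87 for Egr1 with Egr2, 0.84 for Egr2 with Btg2), and Ier3 has 0.65 with Ier5.

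Of the 18193 genes, and leaving out the early genes themselves, the 6 whose brightest probe set followed the mean of the early genes most closely over the 14 samples were Fosb (r = 0.966), Atf3 (0.94), G0s2 (0.94), Ptgs2 (0.932), Ccn1 (0.928) and Junb (0.928). Fosb, Junb and Atf3 encode AP-1 and related transcription factors, Ptgs2 the inducible cyclooxygenase, Ccn1 a matricellular protein and G0s2 an inhibitor of triglyceride lipase. Among the early genes themselves r with that mean, to which each contributes, was 0.991 for Egr3, 0.756 for Nr4a3, 0.54 for Ier3 and -0.332 for Ier5. In AS minus AA the difference was 1.60 for Atf3 and 1.40 for Fosb, neither past the threshold, and 1.19 for Junb, which passed (limma adjusted p 0.0128).

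Probe sets of the same gene were not all alike. The second Egr2 probe set gave 0.98 in AS minus AA and -1.75 in SS minus AS, near the values of the first. The other Egr3 probe set, 1421486_at, read 6.96, 7.02 and 7.04 in AS, against 6.71, 6.57, 6.79 and 6.72 in AA, a difference of 0.31 ± 0.07 that passed (limma adjusted p 0.034) and was far smaller than the 1.83 of the brightest. Of the 6 Nr4a2 probe sets, 4 had differences of 0.70 to 1.35 in AS minus AA and the other 2, 1433422_at and 1433423_at, had 0.20 and 0.03. For the mean adult effect, 2 dimmer Nr4a2 probe sets passed in limma, 1447863_s_at at 0.86 (adjusted p 0.0418) and 1450749_a_at at 0.49 (adjusted p 0.0295), while the brightest had 0.87 (adjusted p 0.127). The other Egr3 probe set, at 0.28 (limma adjusted p 0.00523), and the second of Btg2, at 0.63 (limma adjusted p 0.0319), also passed for that effect, and the brightest of each gene did not. The dimmer Nr4a3 probe sets gave 0.46 and 0.22 in AS minus AA. The Ier5 probe set 1460009_at read lower in AS than in AA, by -0.58 ± 0.14 (limma adjusted p 0.0509), and passed for the mean adult effect at -0.36 (adjusted p 0.0442), whereas 1417613_at gave 0.07.

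The wider early response was examined in 26 other immediate early genes, all measured. In AS minus AA 10 rose and 1 fell, with 21 at an unadjusted p under 0.05 and a median of 0.69. Among those past the threshold, the largest rises were Csrnp1, a cysteine- and serine-rich nuclear protein, at 1.70, and Zfp36, which destabilises cytokine mRNAs, at 1.32, followed by Junb at 1.19. The gene that fell was Klf10, a factor induced by TGF-beta, at -0.77. In SS minus SA 2 rose, Maff at 1.40 and Csrnp1 at 1.03, and the median was 0.28. In SA minus AA none passed in limma, with 6 at an unadjusted p under 0.05 and a median of -0.21. In SS minus AS 11 were lower and 1, Klf10, was higher, with a median of -0.65. Their interaction passed for 3, Klf2 at -1.05 (limma adjusted p 0.0399), Plk2 at -1.42 (0.0399) and Klf10 at 1.31 (0.017), which were named after their values were seen. Of all probe sets, 1.55% passed in AS minus AA, 1.64% in SS minus SA, 0.968% in SS minus AS and 0.131% for the interaction. An unadjusted p under 0.05 was reached by 20.3% of them in AS minus AA and by 6.23% in SA minus AA.

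Upstream of the early genes, 11 of 13 listed factors were measured (SRF, its ETS and MRTF partners, CREB1, CRTC2 and MEF2 factors). None passed in AS minus AA, SS minus SA, SA minus AA or SS minus AS in limma, with 2, 3, 0 and 2 at an unadjusted p under 0.05. Of all probe sets, 20.3%, 14.5%, 6.23% and 13.6% had an unadjusted p under 0.05 in these 4 comparisons. For the mean adult effect Srf was higher at 0.43 ± 0.12 (limma adjusted p 0.0439) and Mef2c lower at -0.25 ± 0.07 (limma adjusted p 0.0434), both named after their values were seen. Of 9 measured partners and relatives, such as the EGR corepressors Nab1 and Nab2 and the NR4A partners Rxra and Rxrb, none passed in the same 4 comparisons in limma, with 2, 2, 0 and 1 at an unadjusted p under 0.05.

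Downstream, listed targets were read beside the factor under which they are listed, and whether that factor acted on them here was not tested. Of 5 measured Egr1 targets none passed in AS minus AA in limma, with 3 at an unadjusted p under 0.05, against 20.3% of all probe sets. In SS minus SA, where 1.64% of all probe sets passed, 1 of the 5 did, F3, tissue factor. It rose by 1.06 ± 0.16 (limma adjusted p 0.0044), while Egr1 itself differed by -0.08. The other 4 were not called there, at -0.24 for Pdgfa, -0.07 for Pdgfb, -0.12 for Tgfb1 and -0.26 for Mmp14, and the median of the 5 was -0.12. In AS minus AA F3 differed by 0.64 (limma adjusted p 0.0575) and Egr1 by 0.88 (limma adjusted p 0.233). The mean adult effect of F3 was 0.85 (limma adjusted p 0.00166). Of 5 p53 targets, listed because Btg2 is one, 1 passed, Cdkn1a, the cell cycle inhibitor p21, which rose in SS minus SA by 1.49 ± 0.27 (limma adjusted p 0.0109), with Btg2 at 0.15 and a median of 0.05 over the 5. Of 5 NF-kB targets, listed because Ier3 is one, 1 passed in SS minus SA, Nfkbia, which encodes the inhibitor of NF-kB. It rose by 0.44 ± 0.07 (limma adjusted p 0.00719), with a median of 0.35 over the 5, while Ier3 fell. For the mean adult effect Nfkbia passed at 0.34 (limma adjusted p 0.00278). Tnfaip3, named after its value was seen, also passed for that effect, at 0.49 (limma adjusted p 0.0258). None of the 5 HSF1 targets passed in AS minus AA, SS minus SA, SA minus AA or SS minus AS in limma, with 0, 1, 0 and 0 at an unadjusted p under 0.05. Among all probe sets the shares at that p were 20.3%, 14.5%, 6.23% and 13.6%.

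Markers of other cells in the lung were set beside AS minus AA. Neutrophil markers, 7 of 8 measured, had means relative to AA of -0.36 to 0.70 in AS and -0.68 to 0.65 in AA, and none passed in limma, with 1 at an unadjusted p under 0.05. Endothelial markers lay between -0.05 and 0.09 in AS and between -0.02 and 0.03 in AA. Of 4 mesothelial markers 1 fell, Lrrn4 at -0.60 (limma adjusted p 0.00976). In SS minus SA 1 of 4 fibroblast markers fell, Tcf21 at -0.43 (limma adjusted p 0.0132).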

How the data were processed

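The authors deposited 1 log2 value per probe set and array, normalized before deposit (array medians 6.9 to 6.93); the log2 scale was read from the values, which ran from 2.4 to 15.11. How background was corrected and values were normalized is not given in the sources used here. Per the submitters' processing notes, limma was used, without a version. No detection calls were made, and the number of arrays limits the precision.

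Of 45101 probe sets, 64 controls were left out. Symbols came from the platform annotation. AS replicates 3 and 4 and SS replicates 1 and 2 were averaged. Group means were fitted to each probe set over 14 samples with limma 3.58.1 in R 4.3.3 (10 residual degrees of freedom), checked on simulated data. Tests were two-sided, with Benjamini-Hochberg adjustment over 45037 probe sets. P-values measure the spread between samples that the labels call biological replicates.

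All members were named, up to 3 called genes of each list in AS minus AA, SS minus SA and SA minus AA, and the 6 genes most like the members' mean. The members and lists were chosen with earlier results of these data known. Alternatives changed the counting of arrays, the replicate block, the groups fitted, normalization, probe sets, weights and samples. The fit without both averaged samples was chosen after seeing the data. Same-numbered arrays of different groups deviated together, with r above 0.1, in 8 of 24 pairs (range -0.157 to 0.251). No such count was made for arrays with different numbers, and near-identical arrays were counted separately. These values therefore cannot decide whether the numbers pair the samples. The labels give no pairing, and none was used in the main fit.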

Additional observations from a re-analysis of the deposited data

Results flagged for a closer look

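Ier3 stood out because the difference with adult SHS ran in opposite directions after the 2 exposures before birth: every SS sample was below the SA mean and every AS sample was above the AA mean. The test of that difference, the interaction, gave -1.04 ± 0.21 with an adjusted p of 0.0702 from limma, which missed the threshold. It passed in 3 of 22 alternatives, with adjusted p from 0.0128 to 0.217 from limma. These were the fit without AS replicate 1, the fit with all 16 arrays counted (-1.11) and the replicate block on those arrays. Counting all 16 arrays adds samples that are not independent, and Ier3 was highest in the near-identical AS arrays. Without the averaged AS sample the interaction was -0.89 (limma adjusted p 0.107). In the groups of 4 samples, SA and AA, no sample stood far enough from the others in any of the 10 genes to be listed here. SS and AS, with 3 samples each, were not tested in this way.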

How the results depend on the processing

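Counts of early genes past the threshold in limma changed with several choices, and the cause was not tested where none is given. With all 16 arrays counted separately, which adds samples that are not independent, 3 genes passed in AS minus AA, 6 in SS minus AS, 3 for the mean adult effect and 1 for the interaction. The replicate block on those arrays gave 4 in AS minus AA, 2 in SS minus AA, 6 in SS minus AS, 4 for the mean adult effect and 2 for the interaction. The replicate numbers are not known to pair the samples. With only the compared groups in the fit, which leaves fewer samples, 0 passed in AS minus AA, 2 in SS minus SA, 2 in SS minus AS and 0 in SS minus AA. Centring arrays on their median gave 0 in SS minus SA and 2 for the mean adult effect, and that effect also had 2 when dimmer probe sets were dropped or with 1 probe set per gene. Array weights, which gave the averaged AS sample 0.265, left 3 in AS minus AA, 7 in SS minus AS, 2 in SS minus AA, 5 for the mean adult effect and 1 for the interaction. Without both averaged samples the counts were 3 in AS minus AA, 0 in SS minus SA, 0 in SS minus AA, 6 in SS minus AS, 3 for the mean adult effect and 1 for the interaction, and the difference was -0.06 for Egr2 in SS minus SA, -0.11 for Nr4a2 in SS minus AA and -0.59 for the Nr4a3 interaction, all 3 with the sign turned. Leaving out each sample in turn gave 1 to 4 in AS minus AA, 0 to 1 in SS minus SA, 0 to 0 in SA minus AA, 2 to 7 in SS minus AS, 0 to 2 in SS minus AA, 0 to 6 for the mean adult effect and 0 to 2 for the interaction. It also turned the sign of differences that had not passed: SS minus SA of Egr1 (-0.37 to 0.22), Egr2 (-0.06 to 0.24) and Ier2 (-0.16 to 0.08), SA minus AA of Ier5 (-0.01 to 0.09), SS minus AS of Nr4a3 (-0.94 to 0.08), SS minus AA of Nr4a1 (-0.83 to 0.01) and Nr4a2 (-0.16 to 0.50), and the interaction of Nr4a3 (-0.42 to 0.73). Of 1590 values of single genes, 1477 kept their direction and their side of the threshold, 62 came to pass it, 35 ceased to and 16 turned sign. A further quantile normalization changed no count.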
